A study of Mus musculus with 12 samples.

Results

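Kruppel-like factors are zinc-finger transcription factors named after the fly gene Kruppel. Of the 30743 genes or transcripts in the count table, 8 are described here, chosen by symbol: Klf2, Klf3, Klf4, Klf5, Klf6, Klf9, Klf10 and Klf13. They were measured by RNA-seq in 12 libraries of cancer cells sorted from mouse lung tumours. KT;Lkb1f/f tumours (3 libraries, here Lkb1-deleted) carry floxed alleles of Lkb1, the kinase encoded by Stk11. KT;H11LSL-Cas9 tumours, together called Sik-targeted here, have Cas9 from the H11LSL-Cas9 allele, which Cre switches on, and guides against genes of the salt-inducible kinases (SIKs), named sgSik1 (3 libraries) or sgSik1-3 (2 libraries). KT tumours (4 libraries) carry the KT background that the other tumours share, and they are the controls of every comparison with KT. All mice were on a mixed BL6/129 background, and their age is not given in the labels. The second sample name in the labels gives lentiviral Cre for KT replicates 2 to 4 and not for replicate 1. The labels say neither which Sik genes the sgSik1-3 guides cover nor whether libraries came from separate animals, so p-values measure the spread between these libraries, which may be partly technical.

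All of these factors bind CACCC or GC-rich DNA through a conserved block of zinc fingers at the carboxyl end, and they differ in the partners that the rest of the protein recruits. Klf3 is mainly a repressor that works with CtBP corepressors, Klf9, Klf10 and Klf13 can repress through SIN3, and Klf2, Klf4, Klf5 and Klf6 can activate genes. Klf2 and Klf4 are targets of MEF2 factors downstream of the kinase ERK5, and SIKs, which Lkb1 activates, phosphorylate the class IIa histone deacetylases that hold MEF2 in check. Klf4, Klf5 and Klf6 are prominent in epithelia, Klf5 takes part in lung maturation, and Klf2, Klf4 and Klf6 are among the genes that respond within minutes to stress and to tissue digestion. Klf2 is also a gene of endothelium and resting T cells.

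RefSeq promoter windows on GRCm38.p6, from 250 bases before to 50 bases after the transcript start, matched 6 of the 8 genes, and those of Klf5 and Klf10 were not among them. The 4 windows here are shown because Klf4, Klf6 and Klf3 carry the calls between genotypes and Klf2 is the gene whose reading turns on 1 library. Each is printed 5′ to 3′ on the strand of its gene, and capitals mark matches to the cAMP response element (full CRE TGACGTCA, short CRE TGACG), AP-1 (TGANTCA), MEF2, CArG and TATA box (TATAAA) motifs on either strand.
Klf4, chr4:55532426-55532725, minus strand: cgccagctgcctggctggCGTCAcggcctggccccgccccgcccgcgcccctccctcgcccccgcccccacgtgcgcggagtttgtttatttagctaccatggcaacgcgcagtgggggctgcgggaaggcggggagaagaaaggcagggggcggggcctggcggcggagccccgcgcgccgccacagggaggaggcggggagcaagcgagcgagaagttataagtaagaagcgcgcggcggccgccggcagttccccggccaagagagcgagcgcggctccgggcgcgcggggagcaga
Klf6, chr13:5861239-5861538, plus strand: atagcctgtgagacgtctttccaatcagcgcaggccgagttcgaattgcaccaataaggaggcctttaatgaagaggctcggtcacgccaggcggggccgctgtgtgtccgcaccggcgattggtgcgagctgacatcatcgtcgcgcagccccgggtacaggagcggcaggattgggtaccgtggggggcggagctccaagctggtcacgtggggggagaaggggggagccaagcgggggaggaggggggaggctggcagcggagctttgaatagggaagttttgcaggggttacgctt
Klf3, chr5:64803271-64803570, plus strand: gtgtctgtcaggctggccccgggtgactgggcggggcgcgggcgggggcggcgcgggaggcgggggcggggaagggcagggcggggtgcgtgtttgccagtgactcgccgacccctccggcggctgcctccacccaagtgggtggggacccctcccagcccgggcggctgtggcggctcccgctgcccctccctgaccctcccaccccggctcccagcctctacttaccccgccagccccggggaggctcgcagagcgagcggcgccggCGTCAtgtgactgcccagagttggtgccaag
Klf2, chr8:72318812-72319111, plus strand: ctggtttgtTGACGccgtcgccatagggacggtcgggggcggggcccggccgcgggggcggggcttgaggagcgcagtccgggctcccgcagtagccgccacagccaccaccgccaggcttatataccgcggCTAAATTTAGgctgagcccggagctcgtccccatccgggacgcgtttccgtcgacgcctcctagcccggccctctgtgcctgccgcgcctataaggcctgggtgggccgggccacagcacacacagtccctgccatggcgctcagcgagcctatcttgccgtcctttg
A short CRE stood 232 bases before the start of Klf4 (as its reverse complement), 241 bases before that of Klf2 and at base 20 after that of Klf3. In all, 5 of the 6 matched promoters held a short CRE, Klf6 being without one, against 20.8% of the 32851 promoters in the RefSeq table. The Klf2 window held a MEF2 match 118 bases before the start, a motif found in 3.19% of all windows and in 1 of these 6. None of the 6 held a full CRE, a CArG box or a TATA box, found in 1.79%, 1.63% and 13.6% of all windows. The GC box (GGGCGG), a site that Sp and Kruppel-like factors can bind, was in 5 of the 6 against 35.7% of all windows, and the CACCC box in 4 of the 6 against 57.5%. The CCAAT box was in 3 of the 6 against 37.4%, with 4 copies in the Klf6 window, and an AP-1 match was in 1 of the 6, Klf9, against 7.81%. The 6 windows were 63.0% to 76.7% G or C, and the shares over all windows were not matched for this. These are letter matches, not sites that the data show to be bound, and short and full CRE matches can overlap.

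Library totals ran from 3847760 to 13955181 counts, and the 4 most abundant genes of a library took between 27.5% and 74.2% of its counts, most in sgSik1 replicate 1. KT replicates 2 and 3 stood apart: 23582 and 23747 genes had counts there, whereas the other 10 libraries had counts in 14283 to 16533. Stk11, the deleted gene, was at 9.23, 16.6 and 9.92 CPM in the Lkb1-deleted libraries, against 44.7, 39.1, 40.9 and 31.0 CPM in the KT libraries; the groups did not overlap, and the test was not passed (log2 change -1.71, SE 0.54, edgeR adjusted p = 0.160). In the Sik-targeted libraries Sik1 was at 514, 112 and 148 CPM with sgSik1 and 105 and 266 CPM with sgSik1-3, against 38.2 to 59.6 CPM in KT. Over KT, Sik1 rose (log2 change 2.24, edgeR adjusted p = 0.00780) and Sik2 rose (1.22, edgeR adjusted p = 0.0328), and Sik3 fell by 1.33 (edgeR adjusted p = 0.0209), with 9.17 to 21.0 CPM with sgSik1 and 8.74 to 11.9 CPM with sgSik1-3 against 26.9 to 46.7 CPM in KT. All 10 epithelial markers had counts in every library, and their sum was 1648 to 2705 CPM in Lkb1-deleted, 1933 to 5531 CPM with sgSik1 and 2725 to 4045 CPM with sgSik1-3, against 1054 to 1468 CPM in KT. None of the 10 was called by edgeR in Lkb1-deleted over KT. There 3 of the 10 and 13.1% of all tested genes had an unadjusted p under 0.05. In Sik-targeted over KT 4 of the 10 and 5.81% of all tested genes rose. The median log2 changes of the 10 were 0.42 and 1.29. Of 10 markers of alveolar type 2 cells, the surfactant-making cells of the lung, none was called in Lkb1-deleted over KT by edgeR. There 0 of the 10 had an unadjusted p under 0.05. In Sik-targeted over KT 4 of these 10 and 6.56% of all tested genes fell. Median log2 changes of these markers were -0.62 and -1.27. Markers of cells that the sort was meant to remove were present. The 9 macrophage markers summed to 5729 to 13658 CPM in KT libraries. Their sum was 710 to 2029 CPM in Lkb1-deleted, 89.2 to 1076 CPM with sgSik1 and 102 to 184 CPM with sgSik1-3. Most of their counts were of Lyz2 (303529 over all libraries, with Chi3l3 next at 21857). The remaining markers had 5 (C1qa) to 1211 (Ccl6) counts over all libraries. The sum thus mainly follows Lyz2 and is no measure of the number of macrophages. All 8 tested macrophage markers had log2 changes under 0 in both comparisons with KT. Leukocyte, endothelial, fibroblast and neutrophil sums peaked outside KT in single libraries, at 316, 246, 417 and 14.3 CPM. In KT they reached at most 227, 67.1, 404 and 5.03 CPM. Those of T and NK, B and plasma, and erythroid cells peaked in KT. By edgeR no tested leukocyte, endothelial, fibroblast or neutrophil marker rose over KT in either comparison. In Sik-targeted over KT 2 of 5 leukocyte, 2 of 8 fibroblast and 1 of 10 endothelial markers fell, and 6.56% of all tested genes. In Lkb1-deleted over KT 1 of the 5 leukocyte markers and 0.552% of all tested genes fell. Leukocyte counts were mostly of Lcp1 (13572) and Cd53 (4022), with 224 of Ptprc. In bulk RNA, fewer cells of a type and less RNA per cell cannot be told apart.

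Levels are given as CPM, counts relative to the library size after scaling by the trimmed mean of M values, and a gene is said to rise or fall where edgeR's quasi-likelihood test gave a Benjamini-Hochberg adjusted p under 0.05 over all tested genes. The scaling factors were 1.14 to 1.89 in KT and 0.394 to 1.31 in the other libraries, and statements that groups do not overlap hold on this scale. Klf5, for example, had 846 of 6675142 counts in KT replicate 3 and 919 of 8941240 in sgSik1 replicate 1. On unscaled totals the order of these libraries is thus the reverse of that in CPM. All 8 genes passed the filter on low counts in each fit. The plot of levels by library shows all values.

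**Figure D1:**
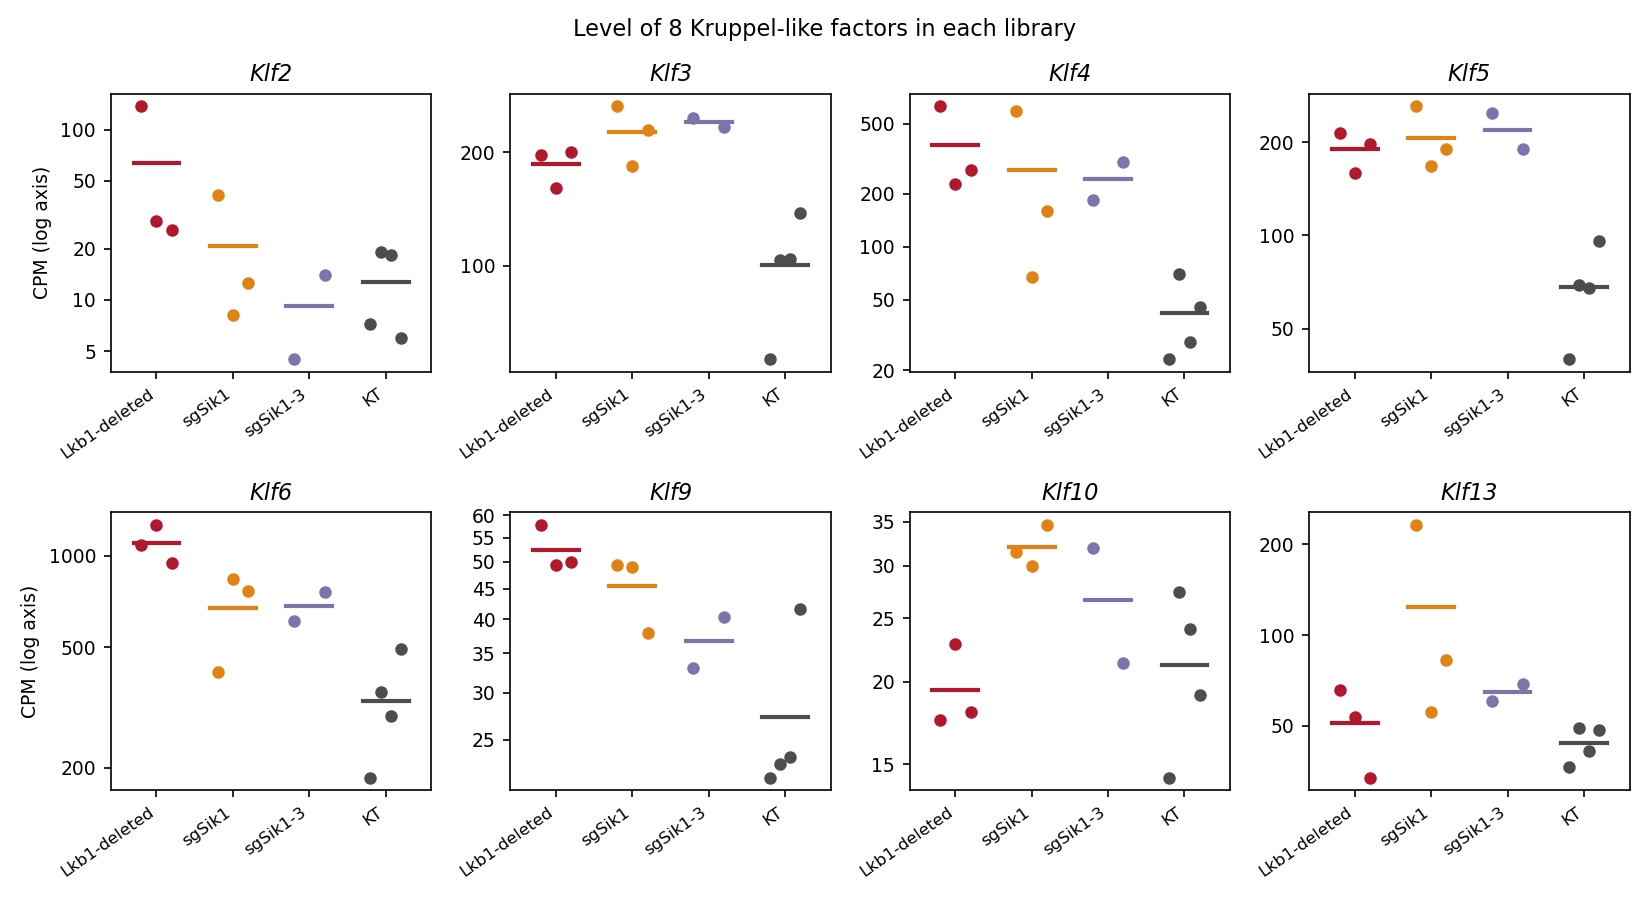
Level of each Kruppel-like factor in CPM (log axes that differ between panels), with 1 point per library and a line at the group mean, for Lkb1-deleted (3), sgSik1 (3), sgSik1-3 (2) and KT (4) libraries. The KT points of Klf3 and Klf5 lie below all others, and in Klf10 only the sgSik1 points all lie above KT.

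In Lkb1-deleted tumours Klf4, Klf5 and Klf6 rose over KT, by 8.96-fold, 2.78-fold and 3.30-fold, and no member fell. Of the 13575 tested genes, 0.611% were called higher and 0.552% lower in this comparison. The median log2 change of the 8 genes was 1.21, and that of all tested genes was -0.04. In 6 of the 8 genes (Klf2, Klf3, Klf4, Klf5, Klf6 and Klf9) every Lkb1-deleted library was above every KT library, as in 6.38% of all tested genes.

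In Sik-targeted tumours Klf3, Klf4 and Klf5 rose over KT, by 2.30-fold, 6.18-fold and 3.10-fold, and again no member fell. Of all tested genes, 5.81% were called higher and 6.56% lower here. The median log2 change of the 8 genes was 1.11, and that of all tested genes was -0.03. Every Sik-targeted library was above every KT library for Klf3, Klf5 and Klf13, 3 of the 8, as in 7.32% of all tested genes. Both comparisons use the same KT libraries, so a KT library that is low for a gene raises both changes at once.

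The epithelial members come first. Klf4 (chr4:55527137-55532475, minus strand), a factor of barrier epithelia that is also one of the pluripotency reprogramming factors, had 628, 228 and 273 CPM in the Lkb1-deleted libraries, 588, 67.9 and 159 CPM with sgSik1, 184 and 302 CPM with sgSik1-3, and 23.1, 69.8, 29.0 and 45.8 CPM in KT. Every Lkb1-deleted library was above KT, whereas sgSik1 replicate 2 lay just under KT replicate 2. Its log2 change was 3.16 (SE 0.62, edgeR adjusted p = 0.0322) in Lkb1-deleted over KT. It was 2.63 in Sik-targeted over KT (SE 0.58, edgeR adjusted p = 0.0113). The spread within groups was wide, with a mean of 376 ± 219 CPM in Lkb1-deleted (SD, n = 3), 259.9 ± 201 CPM in Sik-targeted (SD, n = 5) and 41.9 ± 20.9 CPM in KT (SD, n = 4).

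Klf5 (chr14:99298691-99313412, plus strand), an activator needed for maturation of the lung epithelium, had 214, 159 and 197 CPM in the Lkb1-deleted libraries, 261, 168 and 190.5 CPM with sgSik1, 248 and 190.2 CPM with sgSik1-3, and 40.0, 69.5, 67.9 and 95.7 CPM in KT. The highest KT library stayed below the lowest of the other 8 libraries. The change was nearly the same size in both comparisons, 1.47 on the log2 scale in Lkb1-deleted over KT (SE 0.33, edgeR adjusted p = 0.0432) and 1.63 in Sik-targeted over KT (SE 0.30, edgeR adjusted p = 0.00500).

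Klf6 (chr13:5861489-5870393, plus strand), a factor that can activate the cell-cycle inhibitor Cdkn1a, was the most abundant of the 8 in counts. It had 1085, 1267 and 946 CPM in the Lkb1-deleted libraries, 413, 838 and 763 CPM with sgSik1, 607 and 762 CPM with sgSik1-3, and 186, 356, 297 and 495 CPM in KT. The Lkb1-deleted libraries were above all others, and sgSik1 replicate 1 fell inside the KT range. Its log2 change was 1.72 in Lkb1-deleted over KT (SE 0.37, edgeR adjusted p = 0.0408). It was 1.02 in Sik-targeted over KT and missed the threshold (SE 0.34, edgeR adjusted p = 0.0591). Klf6 passed it there with DESeq2 (1.00, adjusted p = 0.0161), with limma-voom (1.06, adjusted p = 0.0338) and in edgeR with the replicate number as a block (1.30, adjusted p = 0.0429). These fits called 18.6%, 13.8% and 7.73% of all tested genes. In Lkb1-deleted over KT Klf6 lost its call with only the groups compared (1.71, edgeR adjusted p = 0.0573). With the replicate block Klf4 (edgeR adjusted p = 0.0911) and Klf5 (0.0783) lost theirs in that comparison.

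Among the repressors, Klf3 (chr5:64803521-64832901, plus strand) had 197, 161 and 201 CPM in the Lkb1-deleted libraries, 265, 184 and 229 CPM with sgSik1, 247 and 234 CPM with sgSik1-3, and 56.6, 104, 105 and 138 CPM in KT. All KT libraries were lower than all others. The log2 change of Klf3 was 0.89 in Lkb1-deleted over KT and did not pass the test (SE 0.32, edgeR adjusted p = 0.216). It was 1.20 in Sik-targeted over KT and did pass (SE 0.29, edgeR adjusted p = 0.0169). The annotation places a further transcript on the opposite strand over the start of Klf3, Gm20033, and since no strand setting of the counting is given, reads from both cannot be told apart there. The same limit holds within Klf13, where Gm27252 and E030018B13Rik lie on the opposite strand, and within Klf9, where Mir1192 lies on the same strand; E030018B13Rik and Mir1192 have rows of their own in the count table.

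Klf9 (chr19:23141226-23168129, plus strand), a glucocorticoid-inducible factor, had 57.8, 49.5 and 49.95 CPM in the Lkb1-deleted libraries, 49.5, 49.1 and 37.9 CPM with sgSik1, 33.1 and 40.4 CPM with sgSik1-3, and 21.6, 22.7, 23.4 and 41.6 CPM in KT. KT replicate 4 lay among the Sik-targeted values and away from the other KT libraries. The log2 change was 0.94 in Lkb1-deleted over KT (SE 0.31, edgeR adjusted p = 0.178) and 0.62 in Sik-targeted over KT (SE 0.28, edgeR adjusted p = 0.156), and neither passed.

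Klf10 (chr15:38291464-38300711, minus strand), an early gene of TGF-beta signalling, had 17.5, 22.8 and 18.0 CPM in the Lkb1-deleted libraries, 31.5, 30.0 and 34.7 CPM with sgSik1, 31.9 and 21.4 CPM with sgSik1-3, and 14.3, 27.4, 24.1 and 19.1 CPM in KT. Lkb1-deleted and sgSik1-3 libraries overlapped KT, and the 3 sgSik1 libraries were above all KT libraries. The log2 change was -0.13 in Lkb1-deleted over KT (SE 0.32, edgeR adjusted p = 0.916) and 0.49 in Sik-targeted over KT (SE 0.28, edgeR adjusted p = 0.274).

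Klf13 (chr7:63886351-63938915, minus strand), known in T cells as a late activator of the chemokine gene Ccl5, had 65.9, 53.3 and 33.6 CPM in the Lkb1-deleted libraries, 233, 55.5 and 82.6 CPM with sgSik1, 60.5 and 68.8 CPM with sgSik1-3, and 36.5, 49.0, 41.0 and 48.4 CPM in KT. All Sik-targeted libraries were above KT, and sgSik1 replicate 1 was far above the rest. The log2 change was 0.22 in Lkb1-deleted over KT (SE 0.46, edgeR adjusted p = 0.899) and 1.19 in Sik-targeted over KT (SE 0.41, edgeR adjusted p = 0.0721). Without sgSik1 replicate 1 the Sik-targeted value was 0.60 (edgeR adjusted p = 0.127).

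Klf2 (chr8:72319062-72321654, plus strand) had 137, 29.1 and 25.7 CPM in the Lkb1-deleted libraries, 41.5, 8.11 and 12.5 CPM with sgSik1, 4.49 and 13.9 CPM with sgSik1-3, and 7.24, 19.2, 18.4 and 5.94 CPM in KT. All Lkb1-deleted libraries were above KT, led by replicate 1, while the Sik-targeted libraries spread over and around the KT range. The log2 change was 2.32 in Lkb1-deleted over KT (SE 0.72, edgeR adjusted p = 0.152), and 1.11 without Lkb1-deleted replicate 1 (edgeR adjusted p = 0.477). It was 0.31 in Sik-targeted over KT (SE 0.64, edgeR adjusted p = 0.799). The 10 endothelial markers summed to 7.17, 246.4 and 97.3 CPM in Lkb1-deleted replicates 1, 2 and 3, against 48.9 to 67.1 CPM in KT. Replicate 1, which had the most Klf2, had counts of 6 of the 10 markers and none of Pecam1, Emcn, Tek or Tie1. Which cells the Klf2 reads came from was not tested. The 10 markers of T and NK cells summed to 0.121 to 5.88 CPM in Lkb1-deleted and 0.787 to 9.96 CPM in KT libraries.

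**Figure D2:**
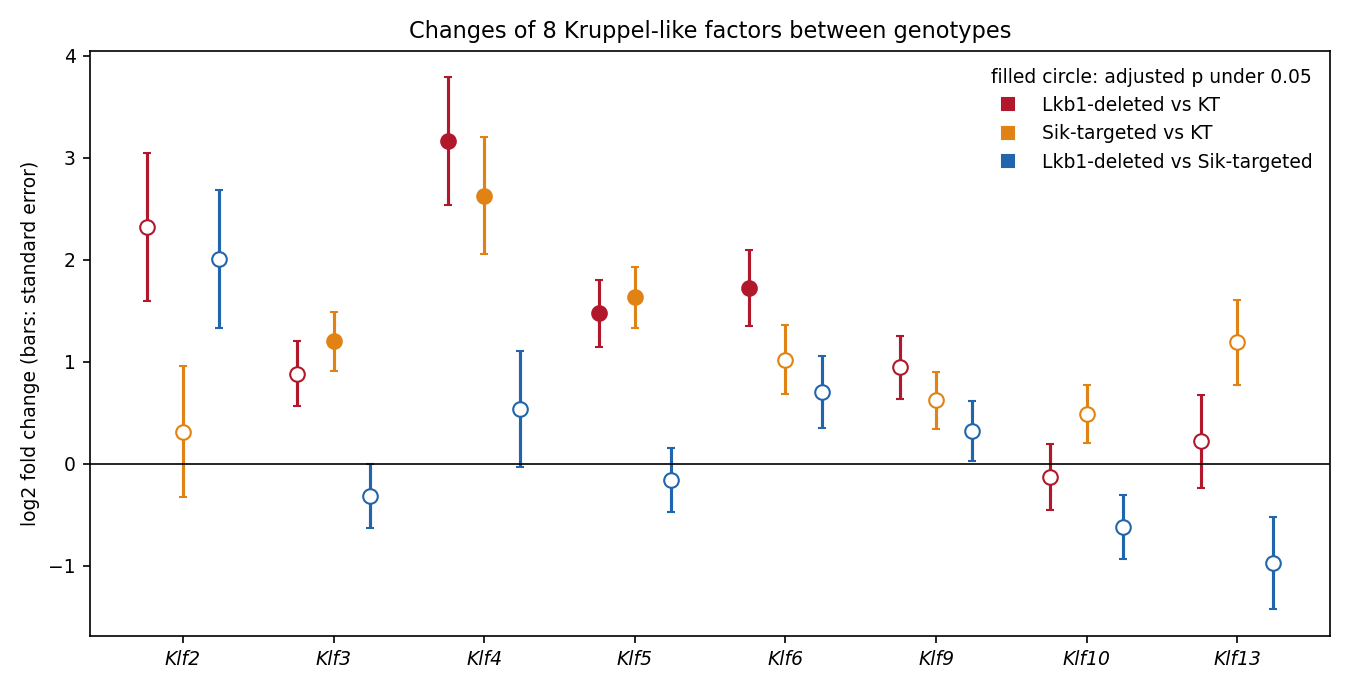
Log2 fold change of the 8 genes in Lkb1-deleted over KT, Sik-targeted over KT and Lkb1-deleted over Sik-targeted, with bars for the standard error; filled circles have an edgeR adjusted p under 0.05. Klf4 and Klf5 are filled in both comparisons with KT, Klf6 in the first and Klf3 in the second, and no circle is filled between the 2 altered genotypes.

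Several calls were lost when 1 library was left out, in fits that also called fewer of all tested genes. In Lkb1-deleted over KT the 12 such fits called 0.101% (without KT replicate 3) to 1.79% (without sgSik1 replicate 1) of genes. With all libraries 0.611% were called higher and 0.552% lower. In Sik-targeted over KT the fits called 4.47% (without KT replicate 2) to 17.4% (without Lkb1-deleted replicate 1). There 5.81% were called higher and 6.56% lower with all libraries. In Lkb1-deleted over KT, Klf4 lost its call in 6 of the 12 fits that left out 1 library: without Lkb1-deleted replicate 1 (log2 change 2.59, edgeR adjusted p = 0.0658), sgSik1-3 replicate 2 (3.16, adjusted p = 0.0528), or KT replicate 1 (2.95, adjusted p = 0.103), 2 (3.51, adjusted p = 0.0707), 3 (3.00, adjusted p = 0.124) or 4 (3.19, adjusted p = 0.0664). Klf5 and Klf6 each lost theirs in 9 of the 12, all but those without sgSik1 replicate 1, sgSik1 replicate 2 or KT replicate 4, with log2 changes of 1.28 to 1.67 for Klf5 and 1.51 to 1.96 for Klf6 and edgeR adjusted p of at most 0.162 for each. In Sik-targeted over KT, Klf4 and Klf5 kept their calls in all 12 fits, with log2 changes of 2.08 to 2.98 and 1.43 to 1.81, and Klf3 lost its call without KT replicate 2 (1.20, edgeR adjusted p = 0.0559) or KT replicate 3 (1.20, edgeR adjusted p = 0.0547). Klf6 gained a call there without sgSik1 replicate 1 (1.14, edgeR adjusted p = 0.0336) or Lkb1-deleted replicate 1 (1.04, edgeR adjusted p = 0.0459), and so did Klf13 without sgSik1 replicate 2 (1.34, edgeR adjusted p = 0.0402) or Lkb1-deleted replicate 1 (1.21, edgeR adjusted p = 0.0497).

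Without KT replicates 2 and 3 together every call in the comparisons with KT was lost. In Lkb1-deleted over KT the log2 change was then 3.46 for Klf4 (edgeR adjusted p = 0.331), 1.497 for Klf5 (adjusted p = 0.434) and 1.70 for Klf6 (adjusted p = 0.434). In Sik-targeted over KT it was 1.22 for Klf3 (edgeR adjusted p = 0.181), 2.88 for Klf4 (adjusted p = 0.107) and 1.61 for Klf5 (adjusted p = 0.102). That fit called 0.0226% of its 13252 genes in the first comparison and 0.74% in the second.

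**Figure D3:**
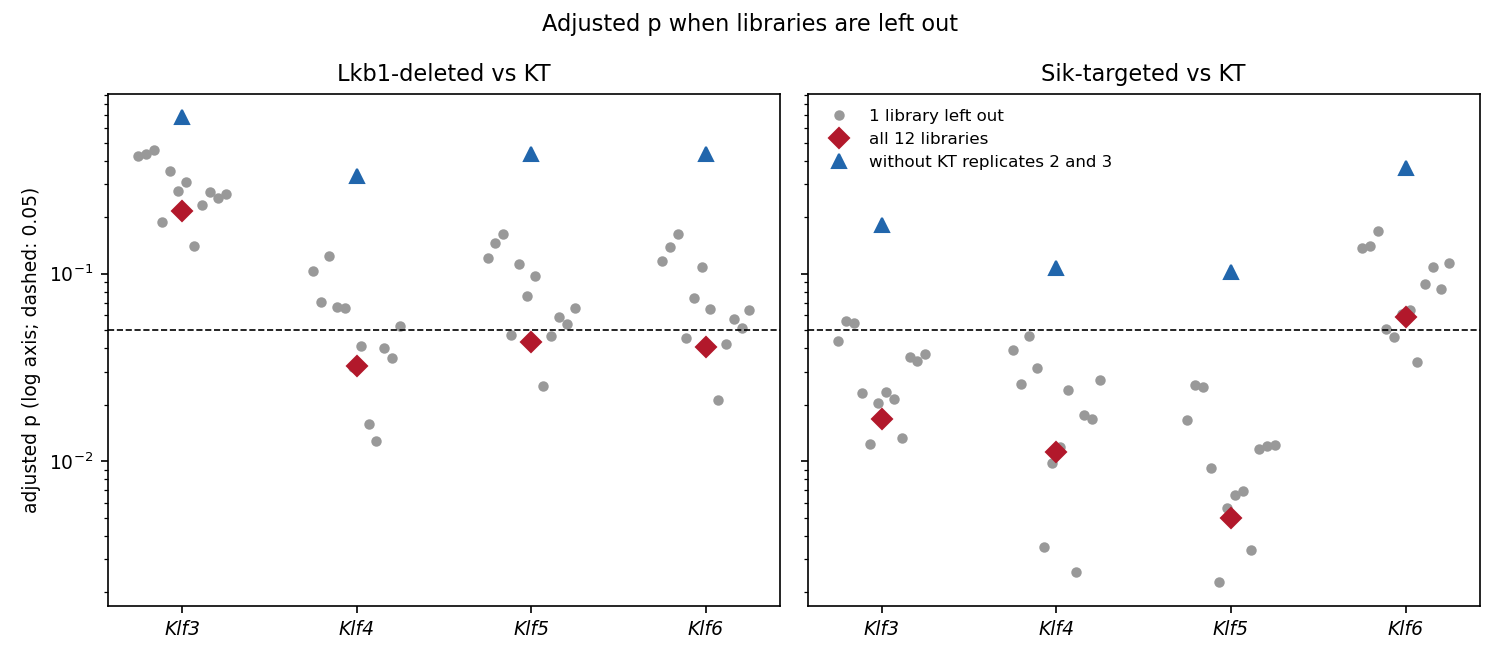
edgeR adjusted p (log axis, dashed line at 0.05) of Klf3, Klf4, Klf5 and Klf6 with all 12 libraries (diamonds), with 1 library left out (grey points) and without KT replicates 2 and 3 (triangles). In Sik-targeted over KT all grey points of Klf4 and Klf5 lie under the line, in Lkb1-deleted over KT many lie above it, and every triangle is above it in both panels.

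Set directly against each other, Lkb1-deleted and Sik-targeted tumours differed in none of the 8 genes by edgeR's adjusted p, where 0.221% of tested genes were called in either direction, 2 of the 8 (Klf2 and Klf13) and 12.7% of all tested genes had an unadjusted p under 0.05, and DESeq2 and limma-voom also called none. The log2 difference was 2.01 for Klf2 (SE 0.67, edgeR adjusted p = 0.233) and -0.97 for Klf13 (SE 0.45, edgeR adjusted p = 0.392). Without the filter on low counts edgeR called Klf2 (2.06, adjusted p = 5.58e-05), in a fit that called 2.71% of its 25751 genes. With the filter and 1 library left out, the Klf2 difference ran from 0.78 to 2.70, with an edgeR adjusted p of at least 0.146. Klf6 was higher in every Lkb1-deleted library than in any Sik-targeted one, with a log2 difference of 0.70 (SE 0.35, edgeR adjusted p = 0.430), and so, by a narrow margin, was Klf9 with 0.32 (SE 0.30, edgeR adjusted p = 0.704); 2.45% of all tested genes were separated in that direction. That Klf6 passed the test in Lkb1-deleted and Klf3 in Sik-targeted does not show a difference between these genotypes: the log2 difference for Klf3 was -0.32 (SE 0.31, edgeR adjusted p = 0.725). The log2 differences of Klf4 (0.54, SE 0.57) and Klf5 (-0.16, SE 0.32) were no larger than their errors.

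Within the Sik-targeted tumours each guide set called Klf4 and Klf5 over KT, in a fit of 15303 genes that called 2.71% of genes higher with sgSik1 and 1.74% with sgSik1-3. Klf4 changed by 2.71 on the log2 scale with sgSik1 (SE 0.62, edgeR adjusted p = 0.0256) and by 2.55 with sgSik1-3 (SE 0.66, edgeR adjusted p = 0.0489). Klf5 changed by 1.62 with sgSik1 (SE 0.35, edgeR adjusted p = 0.0192) and by 1.70 with sgSik1-3 (SE 0.38, edgeR adjusted p = 0.0295). Klf3 was close to the threshold in both, at 1.19 with sgSik1 (edgeR adjusted p = 0.0594) and 1.27 with sgSik1-3 (edgeR adjusted p = 0.0745). With sgSik1 the values leaned on replicate 1: without it Klf4 was at 1.43 (edgeR adjusted p = 0.212) and Klf5 at 1.39 (edgeR adjusted p = 0.0648). With sgSik1-3, leaving out replicate 1 left Klf4 at an edgeR adjusted p of 0.181 and Klf5 at 0.277, and leaving out replicate 2 left them at 0.319 and 0.120. Between sgSik1-3 and sgSik1 edgeR called none of the 8 and none of the 15303 genes, none of the 8 and 528 of all genes had an unadjusted p under 0.05, and DESeq2 and limma-voom called none of the 8 either; the log2 differences of the 8 ran from -1.14 (Klf2) to 0.09 (Klf3).

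Per kb of exons Klf6 had the highest mean of the 8 in every group. In sgSik1 replicate 1 Klf4 was above it, with 44.6% of the summed level of the 8 against 21.8%. Klf6 averaged 250.3 CPM per kb in Lkb1-deleted, 153 with sgSik1, 156 with sgSik1-3 and 75.9 in KT, and it took 40.4% to 64.6%, 21.8% to 65.6%, 47.2% to 48.2% and 52.4% to 62.2% of the summed level of the 8 in those groups. Klf4 was next at 123 CPM per kb in Lkb1-deleted, 89.0 with sgSik1, 79.5 with sgSik1-3 and 13.8 in KT. Its share of the summed level ran from 16.8% to 33.7% in Lkb1-deleted, 7.65% to 44.6% with sgSik1, 20.5% to 27.5% with sgSik1-3 and 7.57% to 14.8% in KT. By group mean Klf5 came after Klf4 in all groups, at 36.5, 39.7, 42.1 and 13.1 CPM per kb in Lkb1-deleted, sgSik1, sgSik1-3 and KT tumours. In single libraries Klf5 was above Klf4 in KT replicates 1 (9.69% against 9.57% of the summed level), 3 (10.4% against 7.57%) and 4 (10.2% against 8.30%). It was also above Klf4 in sgSik1 replicate 2 (11.1% against 7.65%).

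The order below differed between the groups. In Lkb1-deleted tumours it went on with Klf2 (34.7 CPM per kb), Klf3 (16.6), Klf9 (10.9), Klf13 (6.76) and Klf10 (4.65), and the ranges of Klf5 and Klf2, of Klf2 and Klf3 and of Klf13 and Klf10 overlapped. With sgSik1 it was Klf3 (20.1), Klf13 (16.4), Klf2 (11.2), Klf9 (9.45) and Klf10 (7.68), and in the whole order only Klf5 and Klf3 did not overlap as neighbours. With sgSik1-3 it was Klf3 (21.4), Klf13 (8.58), Klf9 (7.63), Klf10 (6.37) and Klf2 (4.99), with clear steps down to Klf13 and overlaps after it. In KT it was Klf3 (8.97), Klf2 (6.87), Klf13 (5.81), Klf9 (5.67) and Klf10 (5.08), and only Klf6 stood clear of its neighbour.

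**Figure D4:**
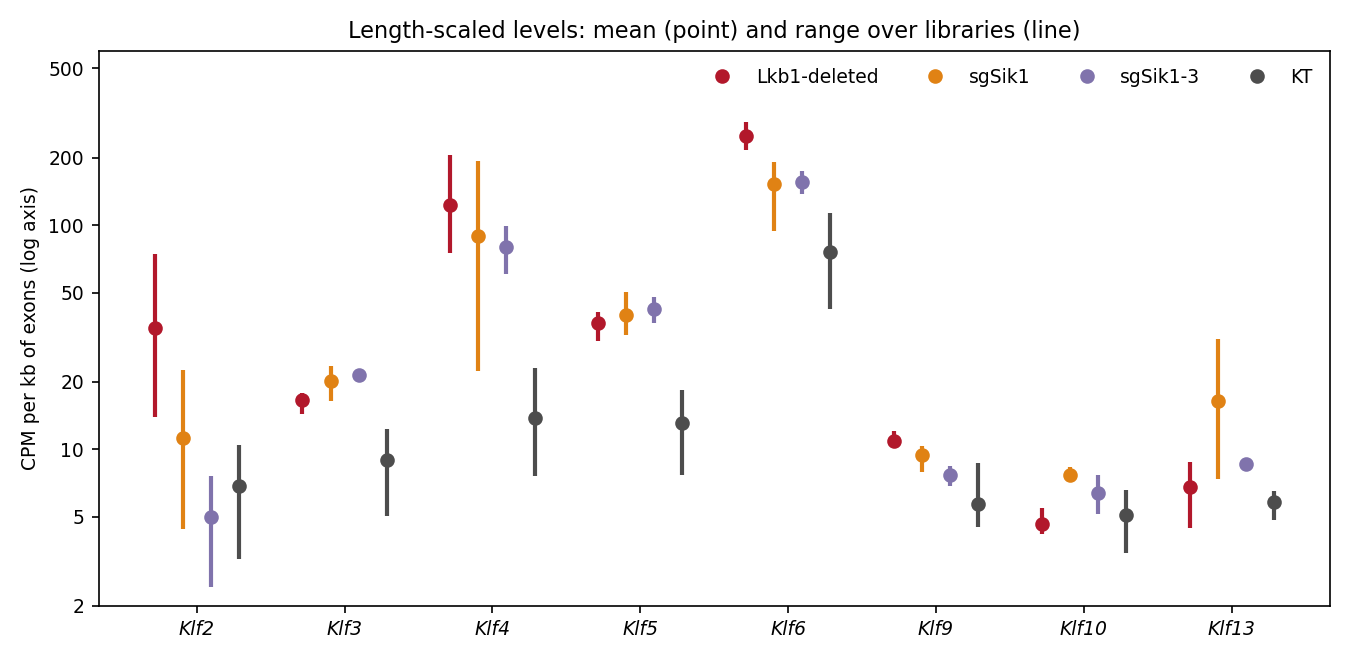
CPM per kb of annotated exons (log axis) of the 8 genes in Lkb1-deleted, sgSik1, sgSik1-3 and KT libraries, with points for group means and lines for the range over libraries. Klf6 has the highest mean in all groups, from 75.9 in KT to 250.3 in Lkb1-deleted, and with sgSik1 its line overlaps that of Klf4. The lines of Klf10 and Klf13 lie low in most groups.

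Of the 18 other Klf and Sp genes, 11 passed the filter. By edgeR none changed in Lkb1-deleted over KT, where 3 of the 11 and 13.1% of all tested genes had an unadjusted p under 0.05. In Sik-targeted over KT 1 rose and 1 fell, and 5 of the 11 and 28.5% of all tested genes had an unadjusted p under 0.05. Their median log2 changes were 0.66 and 0.67, with 9 and 8 of the 11 above 0, against -0.04 and -0.03 for all tested genes. Klf1, Klf8, Klf14, Klf17, Sp7, Sp8 and Sp9 failed the filter. The gene that rose was Klf7, known for roles in neurons and fat cells, with 69.3, 20.9 and 25.2 CPM with sgSik1 and 28.1 and 46.0 CPM with sgSik1-3, against 5.19, 9.98, 16.3 and 18.2 CPM in KT (log2 change 1.60, SE 0.44, edgeR adjusted p = 0.0283). This call was lost without sgSik1 replicate 1, sgSik1-3 replicate 2 or KT replicate 1, 2 or 3, with an adjusted p of at most 0.105. The gene that fell was Sp5, a WNT target, with 0, 3 and 4 counts with sgSik1 and 0 and 0 with sgSik1-3, against 20, 29, 32 and 8 counts in KT (edgeR adjusted p = 0.0161).

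Of the genes around MEF2 upstream of Klf2 and Klf4 (MEF2 factors, ERK5 and its kinases, class IIa histone deacetylases), 11 were tested and none changed in Lkb1-deleted over KT by edgeR, where none had an unadjusted p under 0.05 either (largest in size was Hdac9 at -0.90). Hdac4 rose in Sik-targeted over KT (log2 change 1.53, SE 0.47, edgeR adjusted p = 0.0437), with 124 CPM in sgSik1 replicate 1 and 20.2 to 47.2 CPM in the other 4 Sik-targeted libraries against 14.5 to 23.98 CPM in KT. Its call was lost in 7 of 12 fits that left out 1 library, down to 0.87 without sgSik1 replicate 1. Hdac9 fell by 3.32 on the log2 scale (SE 0.80, edgeR adjusted p = 0.0165), with a low level of 0.16 to 1.99 CPM in Sik-targeted against 3.78 to 12.7 CPM in KT. Of the 13 corepressors, coactivators and ligases that bind Kruppel-like factors, none changed in Lkb1-deleted over KT by edgeR. There 2 of the 13 and 13.1% of all tested genes had an unadjusted p under 0.05. In Sik-targeted over KT 4 of the 13 and 28.5% of all tested genes did. Only Ctbp2, the CtBP partner of Klf3, rose there (log2 change 0.96, SE 0.28, edgeR adjusted p = 0.0384), a call lost in 7 of the 12 fits. Of all tested genes, 5.81% were called higher and 6.56% lower in that comparison.

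Of 9 tested genes that are known targets of these factors, none changed in Lkb1-deleted over KT by edgeR, with a median log2 change of 1.05. There 4 of the 9 and 13.1% of all tested genes had an unadjusted p under 0.05. In Sik-targeted over KT 6 of the 9 and 28.5% of all tested genes did, with a median log2 change of 1.46 for the 9. Of all tested genes, 5.81% were called higher there, and 4 of the 9 rose. They were Krt19, a keratin of simple epithelia that is also among the epithelial markers above (2.71, SE 0.61, edgeR adjusted p = 0.0124), and Thbd, the thrombomodulin gene activated by Klf2 and Klf4 (2.20, SE 0.50, edgeR adjusted p = 0.0130). The others were Cdkn1a (2.87, SE 0.68, edgeR adjusted p = 0.0152) and the cyclin gene Ccnd1 (1.46, SE 0.38, edgeR adjusted p = 0.0248). The count of 4 was 1 without KT replicate 2 and 1 without KT replicate 3. The list was not split into genes that these factors activate and genes that they repress. Lkb1-deleted values for Thbd (2.04, edgeR adjusted p = 0.0908) and Cdkn1a (1.99, edgeR adjusted p = 0.204) had the same sign and missed the threshold.

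Of 8 glucocorticoid-response genes, the pathway that induces Klf9, Mt2 alone was called in either comparison, with a log2 change of 2.32 in Lkb1-deleted over KT (edgeR adjusted p = 0.0468) and 4.17 in Sik-targeted over KT (edgeR adjusted p = 0.000757). Mt2 encodes a metallothionein that metals induce too, and its Lkb1-deleted call was lost in 10 of the 12 fits. Of 11 genes of the TGF-beta response, the pathway that induces Klf10, 1 rose in Lkb1-deleted over KT, the feedback repressor gene Skil (1.76, SE 0.29, edgeR adjusted p = 0.0143; lost without KT replicate 3). In Sik-targeted over KT 6 rose, among them Skil (1.26, edgeR adjusted p = 0.00821) and Pmepa1, a feedback inhibitor (1.70, edgeR adjusted p = 0.0105). Ltbp2, named after its values were seen, fell by 3.39 (edgeR adjusted p = 0.0286), a call lost in 7 of the 12 fits. The count of 6 was 3 without KT replicate 2 and 3 without KT replicate 3. Of all tested genes, 0.611% were called higher in Lkb1-deleted over KT. In Sik-targeted over KT 5.81% were called higher and 6.56% lower.

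Of 24 tested early-response and heat-shock genes that tissue digestion can induce, without the Klf genes, 7 rose in Lkb1-deleted over KT and 11 in Sik-targeted over KT, and none fell. Of all tested genes, 0.611% were called higher in the first comparison and 5.81% in the second. The log2 change was above 0 for all 24 in Lkb1-deleted and for 20 in Sik-targeted, where the lowest was -1.01. Their median log2 changes were 1.85 and 1.52, above the 1.21 and 1.11 of the 8 Kruppel-like factors. Fosb rose in both, by 2.81 in Lkb1-deleted (edgeR adjusted p = 0.0232) and by 1.98 in Sik-targeted (edgeR adjusted p = 0.0161), as did Nr4a1 with 2.76 (edgeR adjusted p = 0.0408) and 2.86 (edgeR adjusted p = 0.00680). The summed level of the 24 genes was 13327 to 21301 CPM in Lkb1-deleted, 10133 to 29668 CPM with sgSik1 and 9468 to 11082 CPM with sgSik1-3, against 2241 to 5588 CPM in KT, so KT did not overlap the rest. The same holds for the summed level of the 8 factors, 1743 to 2402, 1401 to 1882 and 1416 to 1632 CPM in those groups, against 385 to 889 CPM in KT. This separation is not particular to these 2 sums. KT was also below the rest for the epithelial markers (at most 1468 CPM against at least 1648 CPM) and the TGF-beta response (664 against 981 CPM). So it was for the known targets (880 against 1321 CPM), the glucocorticoid response (243 against 295 CPM) and the other Klf and Sp genes (208 against 223 CPM). The sums of the MEF2 group and of the partner proteins overlapped KT. Digestion at 37C was the stated protocol for all samples, and the part of the digestion response, of the epithelial markers or of the macrophage markers that were highest in KT, in the changes of the Klf genes was not tested. No gene of the list was called higher in Lkb1-deleted without KT replicate 2 or without KT replicate 3, and in Sik-targeted 6 were called without the one and 6 without the other.

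**Figure D5:**
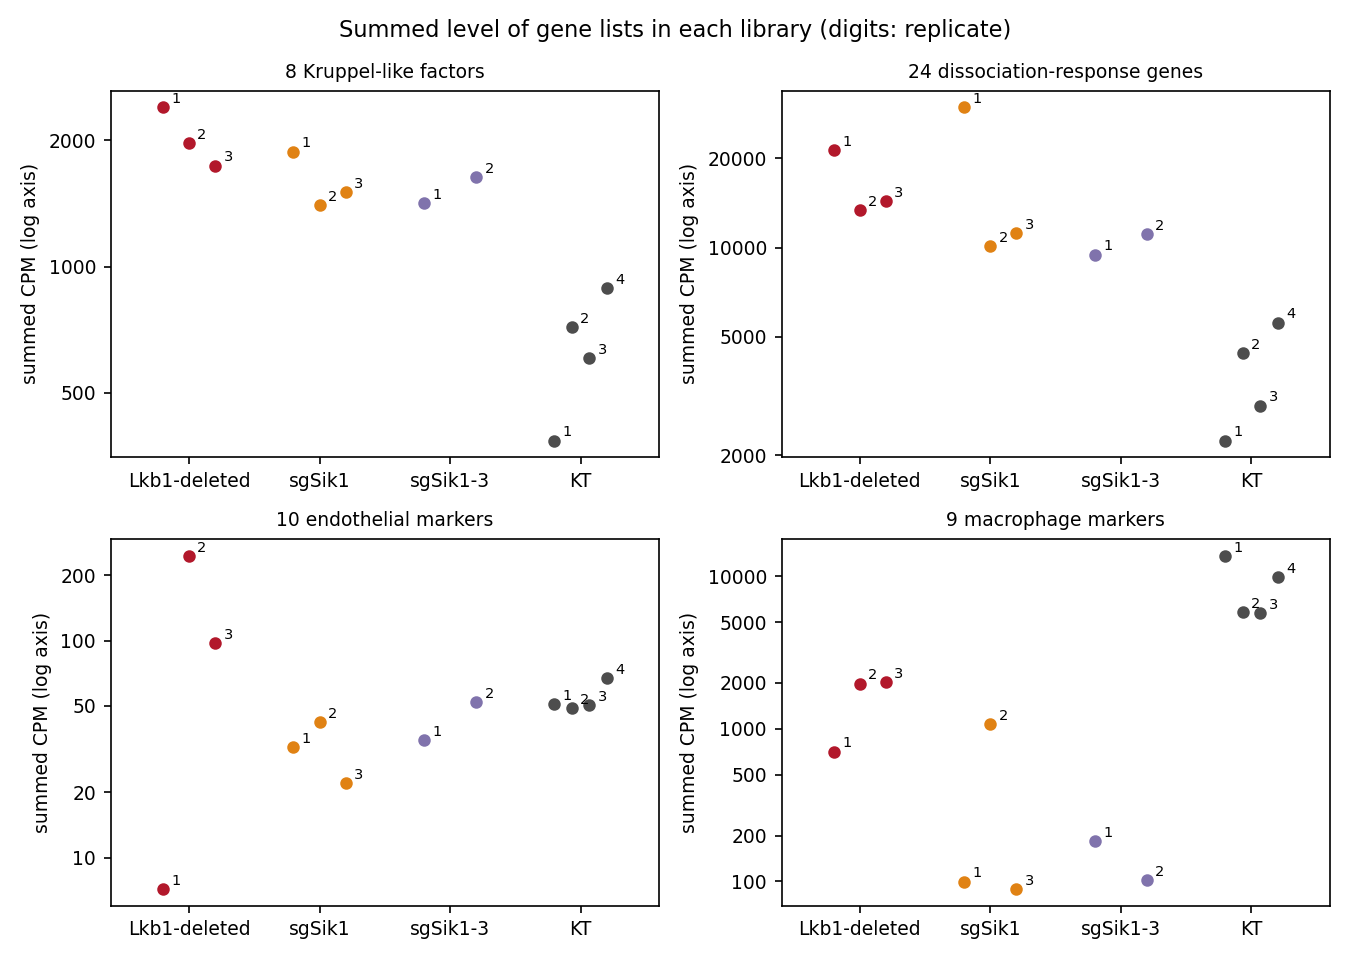
Summed CPM (log axes) of the 8 Kruppel-like factors, 24 dissociation-response genes, 10 endothelial markers and 9 macrophage markers in each library, with digits for the replicate. The KT libraries are lowest for the first 2 sums and highest for the macrophage markers, and the endothelial sum is lowest in Lkb1-deleted replicate 1.

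Likeness to each member across the 12 libraries was measured as the mean absolute difference of log2 CPM (with 0.5 added) after centring, over 10133 genes with a mean of at least 2 CPM. Nearest to Klf5 were Pnrc1 (0.207), Klf3 (0.225) and Elmo1 (0.255), against a median of 0.820 over all genes, so Klf3 and Klf5 ran close to each other. Nearest to Klf6 were the prostaglandin synthase gene Ptgs2 (0.223), Skil (0.2621) and the catenin gene Ctnnd1 (0.284), against a median of 0.821. Nearest to Klf4 were Tob1 (0.357), Frat2 (0.459) and Myc (0.509), against a median of 1.39, and nearest to Klf3 were Tmem131 (0.173), Chd4 (0.184) and Pabpc1 (0.185), against 0.685. Klf2 had no near neighbour on this scale, with Sipa1 first at 0.594 against a median of 1.13. Klf9 was nearest to Spred2 (0.124), Klf10 to Cramp1l (0.169) and Klf13 to Tns1 (0.183). These are descriptions over libraries that share genotype and depth, with no test.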

How the data were processed

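Polyadenylated RNA of sorted cells was amplified with the Ovation kit and sequenced as read pairs, per the labels' protocols. Per the submitters' processing notes, the authors used STAR 2.4.2a and HTSeq on mm10; the gene models and the strandedness of counting are not stated there. Deposited values are raw counts per gene made by the authors, in 1 table whose columns were matched to samples by title. No library was a duplicate of another in its group (chi-square per degree of freedom of 17.4 or more).

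Tests on the counts used edgeR 4.0.16 under R 4.3.3 (TMM, filterByExpr, robust quasi-likelihood F test, 2-sided) in 1 fit of 3 genotypes (13575 genes) and 1 of the 4 title groups (15303 genes), so that groups share the estimate of spread. Alternatives were DESeq2 1.42.0, limma-voom 3.58.1, RLE scaling, no filter, only the groups compared, a replicate block and leaving out libraries; leaving out libraries for the other gene lists was added after seeing the data. The SE is the absolute log2 change over the square root of F. Scripts were tested on simulated data with the same spread for all genes. Over the comparisons of genotypes, 2.08% to 4.26% of 2-fold changes were called in the right direction. This share was 39.6% to 61.2% for 4-fold and 93.6% to 98% for 8-fold changes, so a small change that is not called may still be present. Exon lengths and coordinates are from GENCODE on GRCm38, promoters from RefSeq. All 8 members are named, with up to 4 genes of smallest p from each other list and 3 nearest profiles per member at most. The 8 members and the lists were chosen with earlier results of these data known. Klf2, the member with the fewest counts, had at least 19 in every library. No adjustment over the lists alone is given.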

Additional observations from a re-analysis of the deposited data

Results flagged for a closer look

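Within groups of 4 or 5 libraries, 9 values lay far from the other libraries of their group, out of 48 groups of values checked; chance gives about 1 in 20. In sgSik1 replicate 1, Klf2 was at 41.5 CPM and Klf13 at 233 CPM, each the highest of the 5 Sik-targeted libraries by a wide gap, and so were its summed dissociation-response genes at 29668 CPM and its summed alveolar type 2 markers at 33906 CPM. In KT replicate 4, Klf9 was at 41.6 CPM, far above the other KT libraries, and its summed endothelial markers (67.1 CPM) and leukocyte markers (227 CPM) were also the highest of KT. The summed macrophage markers of sgSik1 replicate 2 were high among the Sik-targeted libraries at 1076 CPM, and the summed B and plasma cell markers of sgSik1-3 replicate 2 were low at 2.17 CPM.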

How the results depend on the processing

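For the 8 genes and 19 alternatives, the log2 changes kept their sign in 150 of 152 values for Lkb1-deleted over KT, 149 of 152 for Sik-targeted over KT, 151 of 152 for Lkb1-deleted over Sik-targeted, 151 of 152 for sgSik1 over KT, 150 of 152 for sgSik1-3 over KT and 144 of 152 for sgSik1-3 over sgSik1. Counts of called genes moved more, and so did the share of all tested genes that a fit called. In Lkb1-deleted over KT, 3 genes were called, but 1 (Klf4) with only the groups compared, 1 (Klf6) with the replicate block, 0 without KT 2 and 3 and 0 to 3 with 1 library left out. These alternatives called 1.14%, 0.361%, 0.0226% and 0.101% to 1.79% of their tested genes. The main fit called 0.611% higher and 0.552% lower. In Sik-targeted over KT the count of 3 was 5 with DESeq2, 0 without KT 2 and 3 and 2 to 5 with 1 library left out. The shares of all tested genes called were 18.6%, 0.74% and 4.47% to 17.4%. The main fit called 5.81% higher and 6.56% lower there. In Lkb1-deleted over Sik-targeted the count of 0 was 1 (Klf2) with no filter on low counts and 0 in all others. In sgSik1 over KT the count of 2 was 4 with DESeq2, 1 with the replicate block, 0 without KT 2 and 3 and 0 to 4 with 1 library left out. The shares of all tested genes were 9.44%, 1.66%, 0.00755% and 0.904% to 8.32%. In sgSik1-3 over KT the count of 2 was 1 with RLE, 1 with limma-voom, 0 with the replicate block, 0 without KT 2 and 3 and 0 to 3 with 1 library of another group left out. Of all tested genes, 2.95%, 2.4%, 0.823%, 0.083% and 0.952% to 7.39% were called in those fits. Without a filter Klf2 was called in Lkb1-deleted over KT (2.33, edgeR adjusted p = 1.44e-05), as with DESeq2 (2.32, adjusted p = 0.0394). These fits called 3.29% and 4.07% of their tested genes in that comparison. The cause of these shifts was not tested, except that leaving out libraries lowers the number of samples.

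Signs turned for small changes. Klf10 in Lkb1-deleted over KT was 0.24 without KT 2 and 3, and ran from -0.29 to 0.0061 with 1 library left out. Klf2 in Sik-targeted over KT was -0.015 with limma-voom, -0.24 with the replicate block and -0.40 to 0.56 with 1 library left out. Klf2 ran from -0.31 to 1.08 in sgSik1 over KT with 1 library left out. In sgSik1-3 over KT it was 0.50 without KT 2 and 3 and -1.48 to 0.15 with 1 library left out. Klf4 in Lkb1-deleted over Sik-targeted ran from -0.056 to 1.07. In sgSik1-3 over sgSik1, Klf4 was 0.36 with limma-voom and -0.62 to 1.12 with 1 library left out, and the ranges were -0.20 to 0.22 for Klf6, -0.039 to 0.24 for Klf3 and -0.13 to 0.31 for Klf5.

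Replicate numbers did not pair the libraries: correlations of deviations from group means ran from -0.38 to 0.23 over 15 same-number pairs, 6 of them above 0.1, and 3 of 11 libraries correlated best with their own number. With 2 to 5 libraries a group, the depth and spread limit what can be called.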
